A study of Mus musculus with 6 samples.

Results

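The genes of glycolysis, the pentose phosphate pathway and lactate handling were followed after silencing of Aldoa, the gene of the aldolase that cleaves the hexose bisphosphate of glycolysis into a pair of trioses. Members were taken by gene symbol from a list of 43, of which 41 were in the expression table of 18001 genes used here. G6pdx and Fbp2 were not in that table and were not analysed here. The cells were NIH/3T3, an immortalized mouse fibroblast line for which the labels name no genetic change, grown in medium with fetal calf serum and harvested 48 h after transfection. They received either siRNAs that target Aldoa, as a pool (siAldoa), or non-targeting control siRNAs (siCtrl), with 3 biological replicates in each group by the study's account. Poly(A) RNA was sequenced from each replicate, so the values are transcript levels in bulk cell populations. In such samples a smaller share of cells that express a gene and less of its RNA per cell cannot be told apart.

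Glycolysis takes up glucose, phosphorylates it, and commits it in the hexose phase to a bisphosphate that aldolase splits. In the triose phase the products are oxidized and converted to pyruvate, and lactate dehydrogenase then reduces pyruvate to lactate, which leaves the cell through monocarboxylate transporters. The pentose phosphate pathway branches off at the hexose phosphates upstream of aldolase and returns fructose phosphate and glyceraldehyde phosphate to glycolysis, on both sides of the aldolase step. Glycogen and hexosamine synthesis also draw on hexose phosphates, and glycerol phosphate is made from dihydroxyacetone phosphate, a direct product of aldolase.

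The libraries held 3692341 to 3771129 reads in genes, recovered as whole numbers from the deposited CPM (a gene's reads scaled by the size of its library), and 3 reads in a library equalled 0.786 to 0.822 CPM. All 8 fibroblast markers were in the table and 5 exceeded 100 CPM in every library. Their summed level was 14748 to 15286 CPM in siCtrl and 12268 to 12969 CPM in siAldoa, and the part of this shift in the results was not tested. The markers did not move as a group: Col1a1, Col1a2, Vim, Fbn1 and Sparc were called lower, Fn1 and Pdgfrb higher, and Col3a1 was not called. The marker lists of epithelial cells, leukocytes, endothelium, skeletal muscle and adipocytes summed to at most 17.5 CPM each in any library, with 9 of their 20 genes in the table. limma was fitted to log2(CPM + 1) of all 18001 genes, its two-sided p-values were adjusted by Benjamini-Hochberg over the whole table, and a gene was called at an adjusted p under 0.05. All log2 fold changes are siAldoa minus siCtrl on this scale, which understates changes of genes with few reads. In both groups replicate 3 stood apart from replicates 1 and 2, which differed less between themselves. The chi-square per degree of freedom was 1.11 to 1.12 between replicates 1 and 2, against 2.07 to 3.24 with replicate 3. Counting error alone gives about 1, so replicates 1 and 2 differed by little more than that. The p-values take all 3 libraries of a group as independent and measure only the spread between these libraries. With replicates 1 and 2 averaged in each group, 3089 genes were called instead of 3676.

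The sequences before an annotated transcription start are shown for the 4 called members with the largest rises and for Eno3. Eno3 was the called member other than Aldoa with the largest fall. Where these transcripts start in the cells was not tested. Each is 250 bases long and ends at the base before the most upstream RefSeq start of the gene in GRCm38.p6 (mm10). In the GENCODE annotation, which gave the gene coordinates below, Slc2a1 begins at 119108711 and Pfkfb3 at 11554077, upstream of these RefSeq starts. Part of their windows therefore lies within the gene as annotated there. Each sequence runs 5′ to 3′ on the strand of the gene, with matches to ACGTG or GCGTG on either strand in capitals. ACGTG and GCGTG are the letters known as the core of hypoxia response elements, and CACGTG, which contains ACGTG, is the E-box bound by MYC and related factors.
Slc2a1, chr4:119108495-119108744, plus strand: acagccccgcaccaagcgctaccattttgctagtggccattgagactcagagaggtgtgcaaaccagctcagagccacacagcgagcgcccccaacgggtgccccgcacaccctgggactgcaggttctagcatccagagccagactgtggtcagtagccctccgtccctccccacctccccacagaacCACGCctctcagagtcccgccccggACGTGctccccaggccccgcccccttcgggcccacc
Hk2, chr6:82774455-82774704, minus strand: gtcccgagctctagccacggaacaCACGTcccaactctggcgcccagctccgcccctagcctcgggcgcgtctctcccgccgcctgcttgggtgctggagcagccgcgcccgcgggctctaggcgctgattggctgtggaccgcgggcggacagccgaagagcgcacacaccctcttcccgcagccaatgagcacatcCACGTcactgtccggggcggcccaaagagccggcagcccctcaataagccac
Pfkfb3, chr2:11553930-11554179, minus strand: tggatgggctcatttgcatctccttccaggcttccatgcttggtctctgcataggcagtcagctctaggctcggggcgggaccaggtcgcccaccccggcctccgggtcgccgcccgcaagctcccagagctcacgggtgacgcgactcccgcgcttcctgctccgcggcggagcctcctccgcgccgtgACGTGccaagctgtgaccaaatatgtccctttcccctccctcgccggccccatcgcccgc
Eno2, chr6:124769674-124769923, minus strand: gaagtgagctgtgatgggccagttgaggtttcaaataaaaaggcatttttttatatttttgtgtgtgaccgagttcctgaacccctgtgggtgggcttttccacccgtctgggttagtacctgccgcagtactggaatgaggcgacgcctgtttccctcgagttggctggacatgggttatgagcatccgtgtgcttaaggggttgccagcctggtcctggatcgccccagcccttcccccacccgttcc
Eno3, chr11:70656926-70657175, plus strand: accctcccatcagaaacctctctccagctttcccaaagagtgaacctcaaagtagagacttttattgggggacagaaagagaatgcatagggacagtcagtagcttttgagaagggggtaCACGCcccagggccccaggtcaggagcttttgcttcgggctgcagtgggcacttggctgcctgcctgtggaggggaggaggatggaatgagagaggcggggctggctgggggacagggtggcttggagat
Matches were counted in 1 promoter per gene, that of the most upstream RefSeq start. Other starts, for genes with several such as Aldoa (3 starts) and Pfkm (4 starts), were not searched. ACGTG was found in 15 of the 40 members with a sequence (37.5%). It was in 16.5% of the promoters of all 27025 genes with a sequence and 20.6% of those of the 11192 genes in the expression table. Among members called higher it was in 6 of 11, and among members called lower in 3 of 8. GCGTG was found in 47.5% of the members, 28.3% of all promoters and 42.7% of those of genes in the table, and in 5 of 11 members called higher and 5 of 8 called lower. For CACGTG these shares were 12.5%, 6.04% and 7.91%, with 1 of 11 and 2 of 8. The promoters of Eno2 and Eno3 held no ACGTG, that of Hk2 held 2 and those of Slc2a1 and Pfkfb3 1 each. A match describes these letters in this window, not a bound site. Slc2a3 was the member without an entry.

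Upstream of aldolase, all 8 members of glucose uptake and the hexose phase had a log2 fold change above 0, from 0.12 to 0.63 with a median of 0.27, and 5 of them were called higher. Downstream, of the 12 members of the triose phase and lactate handling, 5 were called lower and 1 higher, and their median was -0.097. Over all 41 members 8 were called lower, 11 higher and 22 not, with a median of -0.0032. Over all genes 10% were called lower and 10.4% higher, and the median was -0.0023. Among the genes with a mean of at least 10 CPM, where every called member lay, 16.6% were called lower and 15.9% higher, beside 8 and 11 of the 32 members at that level. All 3 siAldoa libraries lay below all siCtrl libraries for 11 members and above them for 14, where 17.1% and 16.7% of all genes did so. At a mean of at least 10 CPM these were 10 and 12 of 32 members, where 23.8% and 22.9% of genes did so. With DESeq2 7 members were called lower and 9 higher, where 9.53% and 9.1% of its genes were, and without the mean-variance trend of limma 4 and 5 were, where 3.42% and 4.58% of all genes were. The members that lost their call with DESeq2 were Hk1, Gpd1l and Gapdh. Without the trend Hk1, Gpi1, Pfkl, Pfkfb3, Taldo1, Gpd1l, Gapdh, Pgam1, Ldha, Tkt and Gpd2 lost it and Pfkfb1 gained it, and with replicates 1 and 2 averaged Pgam1, Ldha, Tkt and Gpd1l lost it. The 8 lower calls became 5 without siCtrl replicate 3, 5 without siAldoa replicate 1 and 4 without siAldoa replicate 2.

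**Figure D1:**
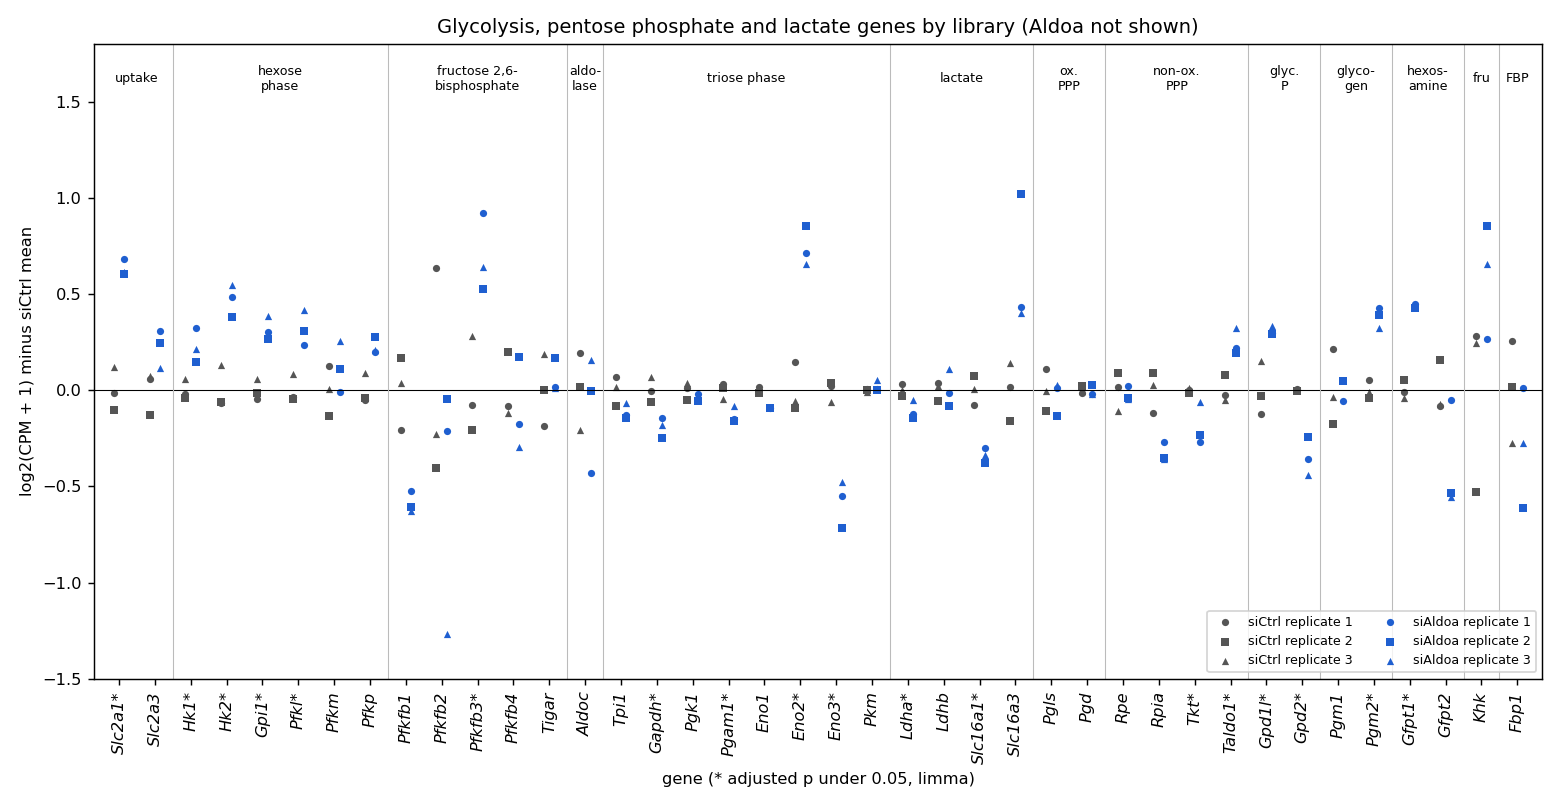
Level of each member but Aldoa in every library, as log2(CPM + 1) minus the mean of the 3 siCtrl libraries, with siCtrl in grey and siAldoa in blue and a marker shape for each replicate number. Genes are ordered by step (ox. and non-ox. PPP, oxidative and non-oxidative pentose phosphate pathway; glyc. P, glycerol phosphate; fru, fructose entry; FBP, fructose bisphosphatase) and called genes carry an asterisk. The blue points of uptake and the hexose phase lie at or above the line except for 1 Pfkm library, while most of those of the triose phase lie below it, with Eno2 above.

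The summed level of the 6 hexose phase genes in the siCtrl libraries was 563, 558 and 602 CPM, and in the siAldoa libraries 695, 687 and 740 CPM, or 123% of the control mean. That of the 8 triose phase genes was 97.5% of the control mean and that of the 4 lactate genes 89.9%. These sums weigh the genes with most reads. In siCtrl, Pkm had 2245 CPM of the triose phase mean of 4325 CPM, and Ldha 986 CPM of the lactate mean of 1371 CPM. The hexose phase and lactate sums did not overlap between the groups, whereas the triose phase sums did, at 4284 CPM to 4375 CPM in siCtrl and 4159 CPM to 4301 CPM in siAldoa. With the reads of near-identical processed copies added, the triose phase sums lay between 9978 CPM and 10279.6 CPM in siCtrl and between 9420 CPM and 9796 CPM in siAldoa, without overlap. Summed over all members but Aldoa, siAldoa stood at 99.3% of siCtrl. The members lay on both sides of the line in the plot of members among all genes, and Aldoa lay far below the rest of them.

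**Figure D2:**
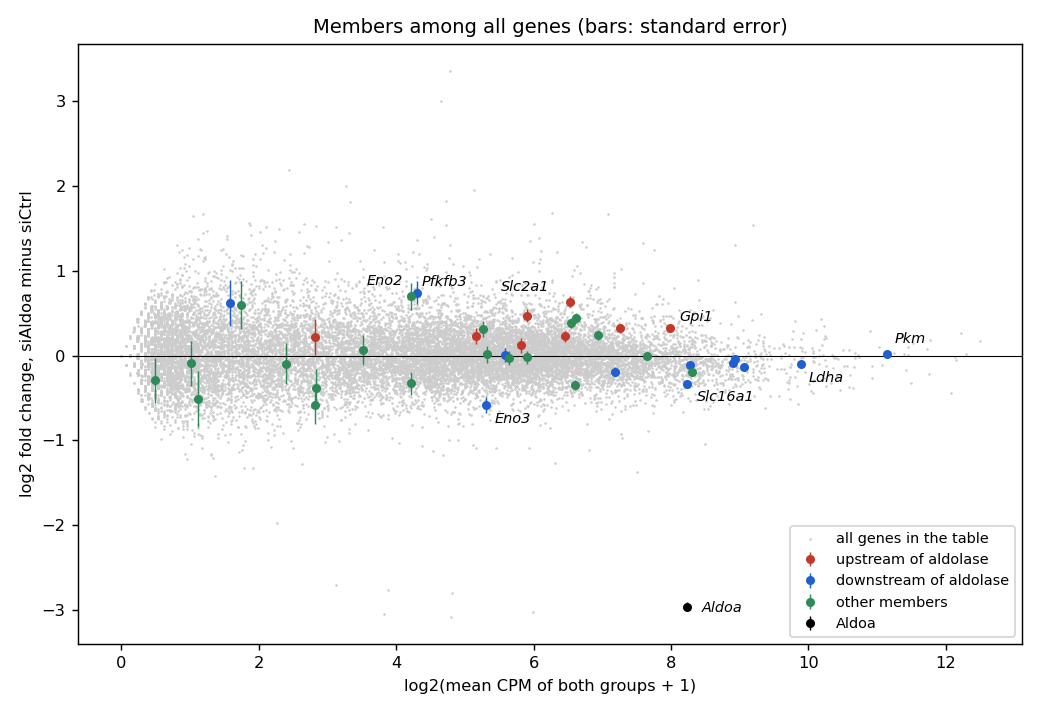
Log2 fold change (siAldoa minus siCtrl, log2(CPM + 1) scale) against log2 of the mean CPM of both groups plus 1, with all 18001 genes in grey. Members are coloured by their place upstream (red) or downstream (blue) of aldolase or elsewhere (green), with bars for the standard error; Aldoa, in black, is at -2.96 and the red points are all above 0.

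Aldoa itself (ENSMUSG00000030695, chromosome 7 of GRCm38 from 126795234 to 126800751, minus strand) gave 522, 536 and 545 CPM in the siCtrl libraries against 62.9, 69.2 and 72.0 CPM in the siAldoa libraries. The siAldoa mean was 12.7% of the siCtrl mean, which matches the labels (log2 fold change -2.96, SE 0.052, limma adjusted p = 1.3e-21). Aldoc, which encodes the aldolase isozyme best known from brain, had 1.37, 1.09 and 0.794 CPM in siCtrl and 0.540, 1.07 and 1.31 CPM in siAldoa, or 2 to 5 reads per library. The groups overlapped, and at this depth a change of Aldoc was not detectable (log2 fold change -0.09, 95% confidence interval -0.65 to 0.46). Its sign turned without siCtrl replicate 1 (0.0050) and without siAldoa replicate 1 (0.077). Per kilobase of annotated exons, the siCtrl level was 184 CPM for Aldoa and 0.333 CPM for Aldoc, and in siAldoa it was 23.4 CPM and 0.298 CPM, so Aldoa remained the isozyme with the higher level.

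Among the genes of glucose uptake, Slc2a1 rose most. It encodes GLUT1, the main basal glucose transporter of fibroblasts, and lies on chromosome 4 from 119108711 to 119137983 (plus strand, ENSMUSG00000028645). Its level in replicates 1 to 3 was 70.4, 66.2 and 77.5 CPM in siCtrl and 115, 109 and 109 CPM in siAldoa. All siAldoa libraries lay well above all siCtrl libraries, with a mean of 111 ± 3.39 CPM (SD, n = 3) against 71.4 ± 5.72 CPM (SD, n = 3). The log2 fold change was 0.63 (SE 0.067, limma adjusted p = 1.85e-07), and the call held in all 19 alternatives tried. Slc2a3, the gene of the high-affinity transporter GLUT3, had 18 to 26 reads per library and was not called, with 4.92 to 5.82 CPM in siCtrl and 6.02 to 7.02 CPM in siAldoa.

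Of the 6 hexose phase genes 4 were called higher, and the remaining ones had log2 fold changes above 0. Higher calls took in 10.4% of all genes and 15.9% of those with a mean of at least 10 CPM. Hk2, the inducible hexokinase of muscle and tumour cells (ENSMUSG00000000628, chromosome 6 from 82725025 to 82774454, minus strand), had 46.8, 47.1 and 54.0 CPM in siCtrl and 69.1, 64.4 and 72.3 CPM in siAldoa. It rose to 139% of the control mean without overlap of the groups (log2 fold change 0.47, SE 0.079, limma adjusted p = 0.000109). Hk1, the hexokinase found in most tissues, had 78.9, 77.7 and 83.1 CPM in siCtrl and 100.1, 88.5 and 93.0 CPM in siAldoa. Its rise was smaller (log2 fold change 0.23, SE 0.065, limma adjusted p = 0.0141), with no overlap either. Without siCtrl replicate 1, siCtrl replicate 2, siAldoa replicate 1 or siAldoa replicate 3, Hk1 was not called, with log2 fold changes of 0.22, 0.21, 0.18 and 0.23, nor with DESeq2 (adjusted p = 0.0822) or without the trend of limma (adjusted p = 0.13). Per kilobase of exons Hk1 was the higher of the pair in siCtrl (9.36 CPM against 8.26 CPM). In siAldoa the means were 11.0 CPM for Hk1 and 11.5 CPM for Hk2, and the order differed between libraries. The lengths used, 8532 bases for Hk1 and 5969 for Hk2, join the exons of all annotated transcripts, so this order depends on the annotation.

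Gpi1 encodes the isomerase that turns glucose phosphate into fructose phosphate, the hexose from which the non-oxidative pentose branch also draws. Its level was 217, 222 and 234 CPM in siCtrl and 277, 270 and 293 CPM in siAldoa, which is 125% of the control mean (log2 fold change 0.32, SE 0.046, limma adjusted p = 1.6e-05). The groups were clearly apart. Pfkl, the liver-type subunit of phosphofructokinase, which makes the substrate of aldolase, had 132, 131 and 143 CPM in siCtrl and 159, 168 and 181 CPM in siAldoa (log2 fold change 0.32, SE 0.057, limma adjusted p = 0.000195). Its siAldoa libraries were likewise all higher. The muscle-type Pfkm and platelet-type Pfkp subunits were not called, with log2 fold changes of 0.12 (95% confidence interval -0.058 to 0.30) and 0.23 (0.033 to 0.42). For Pfkp the groups did not overlap, at 31.0 to 34.1 CPM in siCtrl and 37.0 to 39.0 CPM in siAldoa. Exons of Pfkp share 748 bases with exons of Pitrm1 on the opposite strand, and the sources used here do not say whether counting used strand. Of the phosphofructokinase subunits, Pfkl had the highest level per kilobase of exons in siCtrl, 20.3 CPM, followed by Pfkm at 15.9 CPM and Pfkp at 2.39 CPM. These levels depend on the joined exon lengths, which were 6675 bases for Pfkl, 3340 for Pfkm and 13401 for Pfkp.

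The enzymes that set the level of the phosphofructokinase activator, a second fructose bisphosphate, did not move as a group. Pfkfb3, the isozyme with the highest ratio of kinase to phosphatase activity (ENSMUSG00000026773, chromosome 2 from 11471433 to 11554077, minus strand), had 12.3, 11.2 and 16.1 CPM in siCtrl and 25.6, 19.2 and 20.9 CPM in siAldoa. Every siAldoa library was higher, and the mean stood at 166% of the control (log2 fold change 0.69, SE 0.16, limma adjusted p = 0.00201). Without replicate 1, 2 or 3 of both groups Pfkfb3 was not called, with log2 fold changes of 0.54, 0.68 and 0.86 (limma adjusted p = 0.157, 0.085 and 0.070). Pfkfb1 was below the control in all siAldoa libraries, at 6.30 to 8.48 CPM in siCtrl and 4.45 to 4.86 CPM in siAldoa, and was not called (log2 fold change -0.59, limma adjusted p = 0.0578). With 17 to 31 reads per library, Pfkfb1 passed the threshold when genes with low values were filtered out (limma adjusted p = 0.0345) and in edgeR's quasi-likelihood test (adjusted p = 0.038). Its exons overlap those of the opposite-strand gene Apex2. Pfkfb2, Pfkfb4 and Tigar, whose product degrades the activator, overlapped between the groups, with log2 fold changes of -0.51, -0.10 and 0.07 and at most 44 reads in a library.

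In the triose phase, 3 of the 8 genes were called lower, 1 higher and 4 not called. Among all genes 10% were called lower and 10.4% higher, and at a mean of at least 10 CPM 16.6% and 15.9%. Gapdh, the dehydrogenase that oxidizes glyceraldehyde phosphate, had 153, 147 and 161 CPM in siCtrl and 139, 129 and 135 CPM in siAldoa. The groups did not overlap (log2 fold change -0.19, SE 0.054, limma adjusted p = 0.0131). Pgam1, the mutase that moves the phosphate of phosphoglycerate, had 571, 562 and 542 CPM in siCtrl and 503, 500.0 and 527 CPM in siAldoa. It fell to 91.3% of the control mean, again without overlap (log2 fold change -0.13, SE 0.037, limma adjusted p = 0.013). Gapdh was not called without siCtrl replicate 3 (log2 fold change -0.16) or siAldoa replicate 2 (-0.16), with DESeq2 (adjusted p = 0.0629) or without the trend of limma (adjusted p = 0.164), and Pgam1 was not called without siCtrl replicate 1 (-0.11), siCtrl replicate 2 (-0.13), siAldoa replicate 1 (-0.12) or siAldoa replicate 2 (-0.12). With quantile normalization Pgam1 was at -0.056 and was not called.

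Enolase, which makes phosphoenolpyruvate, is encoded by 3 members that moved in different ways. Eno2, the isozyme known from neurons (ENSMUSG00000004267, chromosome 6 from 124760053 to 124769673, minus strand), had 15.3, 12.9 and 13.2 CPM in siCtrl and 23.2, 25.7 and 22.3 CPM in siAldoa. Its rise to 172% of the control was the largest among the members called (log2 fold change 0.74, SE 0.13, limma adjusted p = 0.000262), and the groups were well apart. Eno3, the isozyme known from muscle (ENSMUSG00000060600, chromosome 11 from 70657202 to 70662513, plus strand), had 47.1, 47.6 and 44.4 CPM in siCtrl and 31.3, 27.8 and 33.0 CPM in siAldoa. It fell to 66.2% of the control, with all siAldoa libraries lower (log2 fold change -0.58, SE 0.094, limma adjusted p = 6.1e-05), and was called in all 19 alternatives. Eno1, the isozyme of most cells, had 496, 486 and 492 CPM in siCtrl and 460, 461 and 463 CPM in siAldoa. Its groups did not overlap, but it was not called (log2 fold change -0.09, limma adjusted p = 0.0755). Per kilobase of exons Eno1 remained the highest of the 3 in both groups, at 91.3 CPM in siCtrl and 85.8 CPM in siAldoa, ahead of Eno3 at 26.7 CPM and 17.7 CPM and Eno2 at 2.93 CPM and 5.04 CPM.

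The remaining triose phase genes were not called. Tpi1 interconverts the triose products of aldolase and had 336, 302 and 324 CPM in siCtrl and 293, 290.0 and 306 CPM in siAldoa. These groups overlapped through siCtrl replicate 2, and without that library Tpi1 was called (log2 fold change -0.15, limma adjusted p = 0.034; with it -0.11 and 0.0809). Pgk1, the kinase of the earlier ATP-forming step, had 499, 478 and 509 CPM in siCtrl and 489, 477 and 481 CPM in siAldoa, which overlap (log2 fold change -0.04, 95% confidence interval -0.11 to 0.038). Pkm, pyruvate kinase of the last step, was the member with most reads, at 2258, 2248 and 2230 CPM in siCtrl and 2253, 2249 and 2333 CPM in siAldoa. Its groups overlapped as well, and the interval of the log2 fold change ran from -0.034 to 0.076 around 0.02. The table counts genes, so the splice forms of Pkm were not told apart.

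Many glycolytic genes have near-identical processed copies elsewhere in the genome, and reads were divided between them in this table. Copies were transcripts at least 90% identical to a member over 200 bases or more. For Gapdh 251 were found in the annotation, 103 of them in the table, and the 95 that aligned over 500 bases and 50% of their own exon length held 92.8% of the reads of gene and copies together, among them Gm5559, Gm7336, Gm12070 and Gm12033. For Eno1 the copies Eno1b and Gm4735 held 80.9%, and for Pgk1 the copies Pgk1-rs7 and Gm5537 held 74.4%. Gm1840 held 51.9% of the reads of Gpi1 with its copy, Pgam1-ps2 32.5% of those of Pgam1 and Gm5514 23.7% of those of Ldhb. The levels of these genes alone are therefore uncertain. For Aldoa the copies Aldoart1, Gm5276 and Gm8659 held 24.5%, whereas for Pkm (1.31%, Gm13810, Gm13812 and Gm29739) and Ldha (0.0468%) the share was small. All these shares count only copies that met the limits of 500 bases and 50%. Left out by them were Aldoart2 (27.2 CPM) for Aldoa, and Gm11814 (36.2 CPM), Gm13365 (9.54 CPM) and Gm5987 (10.1 CPM) for Ldha. The shares of Aldoa and Ldha would be larger with these.

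Adding the copies left the direction of the called genes as it was. Gapdh with its copies had 2122, 2099 and 2060 CPM in siCtrl and 1891, 1864 and 1910 CPM in siAldoa, with no overlap (log2 fold change -0.15, limma adjusted p = 0.000233). Pgam1 with its copy was at -0.16 (limma adjusted p = 0.00163) and Gpi1 with its copy at 0.33 (4.39e-07). Eno1 with its copies had 2655, 2532 and 2518 CPM in siCtrl and 2395, 2328 and 2497 CPM in siAldoa. These sums did not overlap and were called (log2 fold change -0.09, limma adjusted p = 0.0256), unlike Eno1 alone. Pgk1 with its copies was not called, although its sums did not overlap (log2 fold change -0.04, limma adjusted p = 0.406). Summing copies was chosen after the data were seen.

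**Figure D3:**
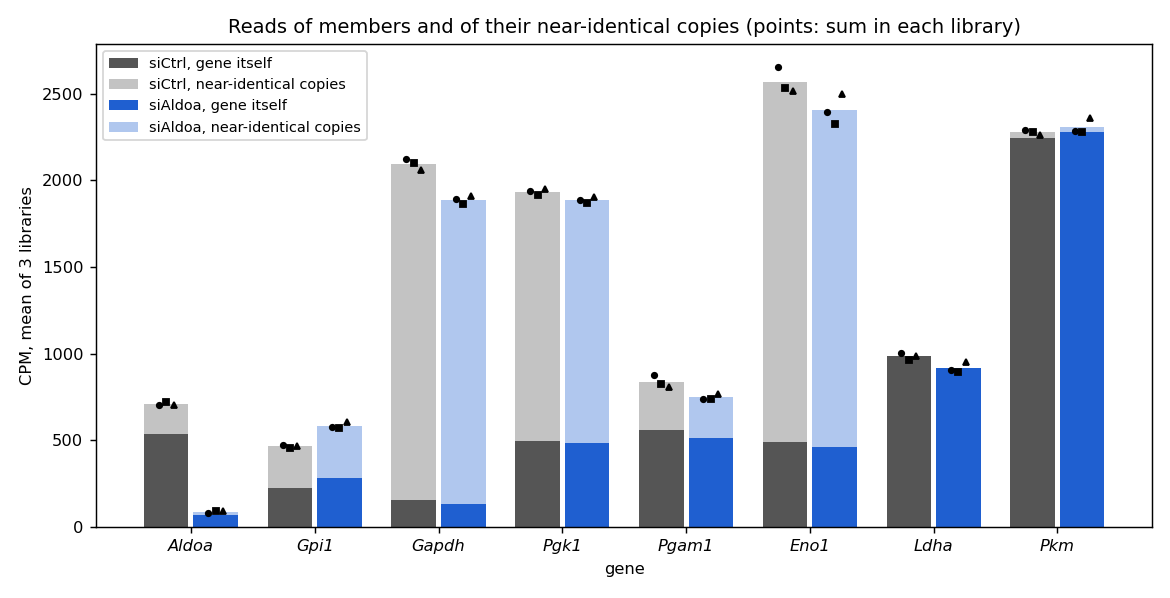
Mean CPM of 3 libraries for 8 members (solid bars) with the reads of near-identical copies stacked on top (pale bars), siCtrl in grey and siAldoa in blue; points are the sum of gene and copies in each library, with a marker for each replicate number. Only copies that met the length limits given in the text are stacked. Most reads shown for Gapdh, Eno1 and Pgk1 are in copies, and those shown for Ldha and Pkm are almost all in the gene itself. The points of siAldoa lie below those of siCtrl for Aldoa, Gapdh, Pgk1, Pgam1, Eno1 and Ldha and above them for Gpi1.

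Of the 4 lactate genes 2 were called lower, both with over 200 CPM in every library. Lower calls took in 10% of all genes and 16.6% of those with a mean of at least 10 CPM. Slc16a1, which encodes the lactate and pyruvate transporter MCT1 (ENSMUSG00000032902, chromosome 3 from 104638668 to 104658462, plus strand), had 318, 354 and 337 CPM in siCtrl and 273, 258 and 266 CPM in siAldoa. The groups were clearly apart, and the mean fell to 79.0% of the control (log2 fold change -0.34, SE 0.045, limma adjusted p = 4.71e-06). Ldha, the main lactate dehydrogenase of glycolytic cells, had 1006, 965 and 986 CPM in siCtrl and 906, 893 and 952 CPM in siAldoa. It was called with a small change and no overlap (log2 fold change -0.10, SE 0.033, limma adjusted p = 0.0259). Ldha lost the call without siCtrl replicate 1 (-0.09), siCtrl replicate 3 (-0.10), siAldoa replicate 1 (-0.10) or siAldoa replicate 2 (-0.09), and with quantile normalization (-0.053). Ldhb, the heart-type subunit, overlapped between the groups at 45.1 to 48.2 CPM and 44.4 to 50.8 CPM, with an interval of the log2 fold change from -0.17 to 0.18. Slc16a3, which encodes the lactate exporter MCT4, had 4 to 14 reads per library, and its siAldoa libraries (2.09 to 3.74 CPM) lay above those of siCtrl (1.09 to 1.59 CPM) without a call (log2 fold change 0.62, limma adjusted p = 0.115). Per kilobase of exons Slc16a1 exceeded Slc16a3 in both groups, at 76.0 CPM against 0.254 CPM in siCtrl and 60.0 CPM against 0.501 CPM in siAldoa.

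In the pentose phosphate pathway the enzymes of the non-oxidative branch that exchange carbon units moved in opposite directions. Tkt, transketolase (ENSMUSG00000021957, chromosome 14 from 30548359 to 30574720, plus strand), had 336, 332 and 338 CPM in siCtrl and 278, 285 and 322 CPM in siAldoa. All siAldoa libraries were lower, replicate 3 by the least (log2 fold change -0.19, SE 0.048, limma adjusted p = 0.00586). Taldo1, transaldolase, had 109, 117 and 107 CPM in siCtrl and 129, 127 and 139 CPM in siAldoa, and all of its siAldoa libraries were higher (log2 fold change 0.25, SE 0.058, limma adjusted p = 0.00339). Tkt was not called without siCtrl replicate 3 (-0.18), siAldoa replicate 1 (-0.15) or siAldoa replicate 2 (-0.17), nor with quantile normalization (-0.13). Pgd, a dehydrogenase of the oxidative branch that yields NADPH, had 197, 203 and 199 CPM in siCtrl and 197, 204 and 197 CPM in siAldoa. These groups overlapped, and the interval of the log2 fold change ran from -0.097 to 0.091. Pgls, the lactonase of that branch, and Rpe, the epimerase of the other, overlapped too, at -0.03 and -0.02. Rpia, the isomerase that makes ribose phosphate, was lower in every siAldoa library at 15.2 to 16.2 CPM against 18.1 to 21.1 CPM, and was not called (log2 fold change -0.33, limma adjusted p = 0.0951). Exons of Pgls share 776 bases with Fam129c on the same strand, and those of Rpe 558 bases with Kansl1l on the opposite strand.

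Of the 8 members of side branches 3 were called higher and 1 lower. Among all genes these shares were 10.4% and 10%, and among those with a mean of at least 10 CPM 15.9% and 16.6%. Gfpt1, the entry enzyme of hexosamine synthesis, which feeds protein glycosylation (ENSMUSG00000029992, chromosome 6 from 87042846 to 87092197, plus strand), had 81.9, 85.6 and 80.2 CPM in siCtrl and 113, 111 and 113 CPM in siAldoa. The siAldoa libraries were close to each other and all higher (log2 fold change 0.44, SE 0.059, limma adjusted p = 5.48e-06). Pgm2, the phosphoglucomutase that links glucose phosphate to glycogen (ENSMUSG00000025791, chromosome 4 from 99929414 to 99987294, plus strand), had 83.0, 77.7 and 79.4 CPM in siCtrl and 108, 105 and 100.3 CPM in siAldoa. It too was higher in every siAldoa library (log2 fold change 0.38, SE 0.062, limma adjusted p = 6.59e-05). Gfpt1 and Pgm2 were called in all 19 alternatives. The mouse names of the phosphoglucomutases are the reverse of the human ones, and Pgm1 in this table (ENSMUSG00000029171) overlapped between the groups, at 34.2 to 45.2 CPM and 37.2 to 40.3 CPM. Exons of Pgm2 share 398 bases with Itgb3bp on the opposite strand. Gfpt2, the second hexosamine entry enzyme, had 17 to 29 reads per library and overlapping groups (log2 fold change -0.38, limma adjusted p = 0.265).

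The 2 glycerol phosphate genes, whose enzymes interconvert glycerol phosphate and dihydroxyacetone phosphate, moved in opposite directions. Gpd2, the mitochondrial dehydrogenase of the glycerol phosphate shuttle (ENSMUSG00000026827, chromosome 2 from 57237635 to 57370719, plus strand), had 108 CPM in each siCtrl library and 83.9, 91.1 and 79.1 CPM in siAldoa. The siCtrl values were nearly equal and all siAldoa values lower (log2 fold change -0.35, SE 0.063, limma adjusted p = 0.00025). Gpd1l, a cytosolic relative of the dehydrogenase that makes glycerol phosphate, had 30.4, 32.6 and 37.0 CPM in siCtrl and 41.0, 40.9 and 42.2 CPM in siAldoa. Its groups did not overlap (log2 fold change 0.31, SE 0.095, limma adjusted p = 0.023). Of the fits that left out 1 library, Gpd1l was called without siCtrl replicate 3, and without siCtrl replicate 1, siCtrl replicate 2, siAldoa replicate 1, siAldoa replicate 2 or siAldoa replicate 3 it was not, with log2 fold changes of 0.25, 0.29, 0.31, 0.32 and 0.29. It also lost the call with DESeq2 (adjusted p = 0.135), without the trend of limma (0.0949) and with replicates 1 and 2 averaged (0.081). Khk, the kinase through which fructose enters, had 3 to 14 reads per library, overlapping groups and a log2 fold change of 0.59 (limma adjusted p = 0.158). Fbp1 had 9 reads over all libraries.

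Ratios of isozymes within a library do not depend on its depth apart from the pseudocount of 1. Of 13 pairs of members, the log2 ratio of (CPM + 1) did not overlap between the groups for 11, higher in siAldoa for 7 and lower for 4. Among single genes 16.7% were higher and 17.1% lower without overlap, and the same share was not computed for pairs of genes. With 3 libraries in each group the exact permutation test, two-sided, cannot go below p = 0.1, which these 11 pairs had (0.118 after Benjamini-Hochberg adjustment over the 13 pairs). The ratio of Eno2 to Eno1 was -5.06 ± 0.11 in siCtrl and -4.23 ± 0.10 in siAldoa (log2, mean ± SD, n = 3), a difference of 0.83. That of Hk2 to Hk1 differed by 0.24, and that of Ldhb to Ldha by 0.11. The ratio of Gpd2 to Gpd1l was lower by 0.66 on the log2 scale (1.67 ± 0.14 in siCtrl and 1.01 ± 0.12 in siAldoa), and that of Gfpt2 to Gfpt1 was -3.38 ± 0.092 in siCtrl and -4.20 ± 0.28 in siAldoa. The groups overlapped for Pfkm to Pfkp (-0.11) and for Pfkfb3 to Pfkfb4 (0.79). The pair of Aldoc and Aldoa contains the silenced gene.

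**Figure D4:**
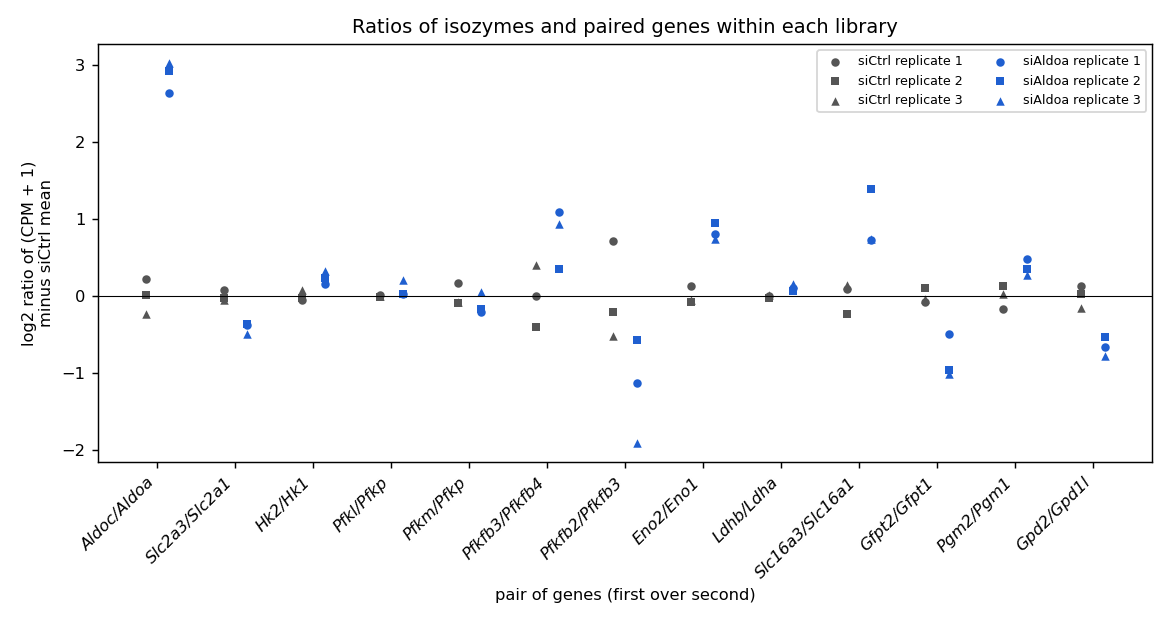
Log2 ratio of (CPM + 1) of pairs of members within each library, minus the mean of the 3 siCtrl libraries, with siCtrl in grey, siAldoa in blue and a marker shape for each replicate number. Aldoc/Aldoa is 2.87 higher in siAldoa, Eno2/Eno1 0.83 higher, and Gpd2/Gpd1l lies below the siCtrl points in all 3 siAldoa libraries.

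A second list of 63 other genes of hexose metabolism had 50 in the table, of which 11 were called higher and 3 lower. Over all genes 10.4% were called higher and 10% lower, or 20.4% in either direction. Among genes with a mean of at least 10 CPM these shares were 15.9%, 16.6% and 32.6%. The called genes Pgam2, Pygm and Tktl1 lay below that level, as did some genes of the list that were not called. Outside the members, Bpgm, the mutase of the bisphosphoglycerate bypass of the triose phase, had 31.0, 29.3 and 32.5 CPM in siCtrl and 74.2, 70.0 and 65.5 CPM in siAldoa. It rose to 226% of the control mean with widely separated groups (log2 fold change 1.15, SE 0.084, limma adjusted p = 6.22e-10) and was called in all 19 alternatives. Pgam2, the muscle-type mutase, had 3 to 20 reads per library and 0.821 to 1.85 CPM in siCtrl against 3.51 to 5.24 CPM in siAldoa (log2 fold change 1.20, limma adjusted p = 0.00193).

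The glycogen genes had 12 in the table and 4 called higher, where 10.4% of all genes were, or 15.9% of those with at least 10 CPM. Of these glycogen genes, Pygm, which was called, and Slc37a4, which was not, had means under 10 CPM. Gbe1, the glycogen branching enzyme, had 72.0, 68.1 and 66.9 CPM in siCtrl and 93.6, 89.3 and 90.6 CPM in siAldoa (log2 fold change 0.40, SE 0.065, limma adjusted p = 7.01e-05). Its groups did not overlap, and it was called in all 19 alternatives. Gys1 and Gyg, glycogen synthase and glycogenin, were called higher too, and Pygm, the muscle phosphorylase, rose by 1.03 on the log2 scale at 3 to 18 reads per library. Pygm was not called without siCtrl replicate 1 (0.91), siAldoa replicate 1 (0.97) or siAldoa replicate 3 (0.85). Of the hexosamine genes, Gnpda1, a glucosamine phosphate deaminase, and Ogt, which attaches the sugar to proteins, rose with log2 fold changes of 0.51 and 0.34, and 6 others were not called. Tktl1, a transketolase-like gene, rose by 1.01 on the log2 scale at 6 to 23 reads per library. Of the galactose, mannose and polyol genes, Galm, which interconverts forms of galactose, was called higher (0.55), as was Sord, while the galactokinase gene Galk1 was called lower. Galm was called without siAldoa replicate 1 and lost the call in each of the 5 other fits without 1 library, where it lay between 0.40 and 0.59, and also with DESeq2, without the trend of limma and with the replicate number as a block (adjusted p = 0.0928, 0.0812 and 0.0583). Adpgk, an ADP-dependent glucokinase, and Pgp, a phosphoglycolate and glycerol phosphate phosphatase, were the other genes called lower. Without the trend only 5 genes of this second list were called, namely Bpgm, Pgam2, Gbe1, Gnpda1 and Tktl1, all higher. Gbe1 was then the only glycogen gene called, and no gene of the list was called lower.

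**Figure D5:**
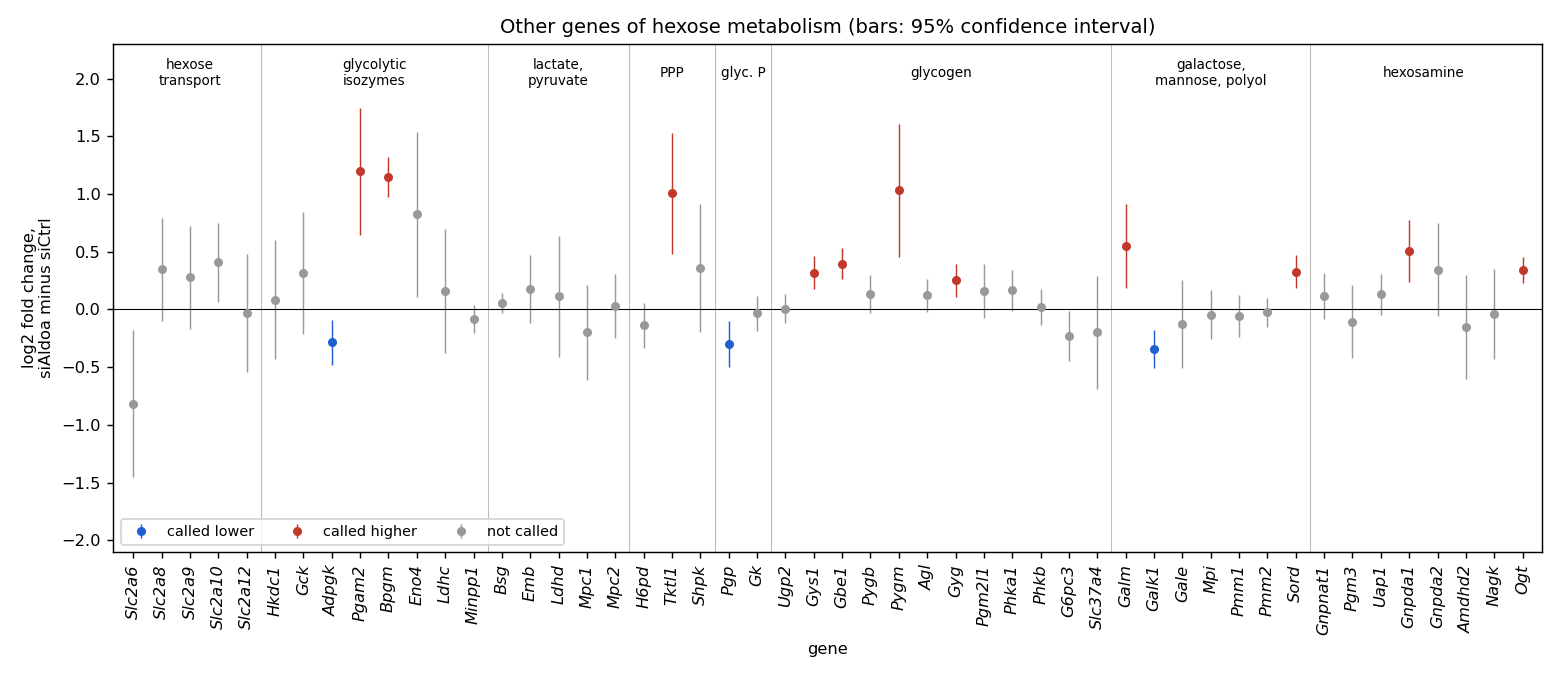
Log2 fold change (siAldoa minus siCtrl, log2(CPM + 1) scale) of the 50 other genes of hexose metabolism by group, with bars for the 95% confidence interval, red for genes called higher, blue for genes called lower and grey for the rest. Bpgm at 1.15 has the shortest bar of the genes above 1, and 10 of the 12 glycogen genes lie above 0, as do 8920 of all 18001 genes.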

How the data were processed

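RNA-sequencing libraries of NIH/3T3 cells, 3 siCtrl and 3 siAldoa, were analysed. Per the study's methods and the submitters' processing notes (bcl2fastq, Bowtie2 2.2.7, mm10), the authors aligned the reads, drew equal numbers per sample, made count tables by gene and deposited CPM scaled to an effective library size. Bowtie2 does not split reads over introns, so reads over exon junctions can align to processed copies. Annotation, strand use and treatment of reads with several positions are not given in the sources used here. The deposited comparison of the groups (log2 fold change, log2 mean CPM, p and adjusted p) was not used. No sample column was left unused, and 200 rows had no gene symbol.

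Dividing by the value of 1 read gave whole reads (within 0.001) for 100% of values. Precision from reads covers counting error only, since the libraries carry no molecular identifiers. The test was limma 3.58.1 in R 4.3.3 on log2(CPM + 1) with a trend of variance on level. It was tried on simulated reads in which, unlike in these data, no replicate stood apart. Its error rate under the spread between the real replicates was therefore not tested. On the reads, edgeR 4.0.16's quasi-likelihood test called 3786 genes, and DESeq2 1.42.0 was also run. Further alternatives were a pseudocount of 0.1, a filter on low genes, TMM scaling, quantile normalization, no trend and the replicate block. Libraries were also omitted, and replicates 1 and 2 were averaged. Summed copies and a blocked edgeR fit were added after seeing the data. Coordinates and exon lengths are from GENCODE on GRCm38 (17932 of 18001 genes matched), promoter sequences from RefSeq GRCm38.p6, and copies from blastn. Exon lengths join the exons of all annotated transcripts of a gene, so levels per kilobase compare genes only roughly.

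Members and lists were chosen with earlier results of these data known. Every member is accounted for. Library values are given for Aldoa, Aldoc, called members and uncalled members with a mean of at least 100 CPM. Of the other genes, the 8 with the largest change among those called without overlap are named, and the remaining called ones were named after their values were seen.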

Additional observations from a re-analysis of the deposited data

How the results depend on the processing

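The deposited CPM were already scaled to an effective library size, and TMM scaling gave the same 3676 calls as the main fit. It was therefore no separate check, although it is counted among the 19 alternatives named above. Pseudocount, quantile normalization, filter and edgeR left the numbers of called members within 1.5 times. The 3676 called genes became 2183 with DESeq2, 1440 without a mean-variance trend and 1014 to 2813 with libraries left out. Members called higher (11) were 5 without the trend and 6 to 11 with libraries left out. Members called lower (8) were 4 without the trend, 5 with replicates 1 and 2 averaged and 3 to 8 with libraries left out. Some member calls held without any 1 library but not without both libraries of 1 replicate number. These were Pfkfb3 (replicate 1, 2 or 3), Eno2 (2 or 3), Taldo1 and Gpd2 (1 or 3), Slc16a1 (3), Hk2 (1) and Pfkl (2). The 14 other called genes of hexose metabolism were 7 with DESeq2, 5 without the trend and 2 to 13 with libraries left out. The cause was not tested. Low depth limits Aldoc, Fbp1, Khk, Pfkfb2 and Slc16a3.

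Signs turned only for genes that were not called. With quantile normalization the log2 fold change was 0.013 for Eno1, -0.020 for Ldhb, 0.034 for Pgd, 0.069 for Pgk1 and -0.021 for Pgm1, and with replicates 1 and 2 averaged 0.029 for Aldoc. With libraries left out the ranges were -0.32 to 0.17 for Aldoc, -0.049 to 0.047 for Ldhb, -0.23 to 7.9e-05 for Pfkfb4, -0.020 to 0.0071 for Pgd, -0.087 to 0.024 for Pgls, -0.091 to 0.16 for Pgm1, -0.0014 to 0.033 for Pkm, -0.075 to 0.031 for Rpe and -0.027 to 0.19 for Tigar. The ratio of Pfkm to Pfkp was -0.23 to 0.029.

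The labels do not tie same-numbered libraries together, and by the study's methods ERCC spike-in RNA was added at another stage in replicate 1 than in replicates 2 and 3. The deviations of same-numbered libraries from the group means correlated by 0.0797, 0.0781 and 0.279. Those of siCtrl replicate 2 and siAldoa replicate 1 correlated by 0.156, and those of siCtrl replicate 1 and siAldoa replicate 2 by 0.0623. Replicate 3 of each group correlated negatively with replicates 1 and 2 of the other, from -0.211 to -0.115. Replicate 3 was thus alike across the groups, but replicates 1 and 2 were not told apart, so the numbers were not taken as pairs. The replicate block gave 3170 called genes, 3151 shared with the fit without it, and 8 members were lower and 11 higher, with 12 other genes of hexose metabolism called.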
